A study of Mus musculus with 120 samples.

Results

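The livers of male and female mice of 10 Collaborative Cross strains were compared after 12 weeks on a high-fat, high-sucrose (HF/HS) diet. The Collaborative Cross is a panel of inbred strains, each bred from the same set of founder strains, so the strains differ in genotype while mice within a strain are near identical. The groups were 30 male HF/HS libraries and 29 female HF/HS libraries (3 per strain and sex, 2 for CC040 females), set beside 30 male control-diet libraries and 29 female control-diet libraries of the same strains (CC060, CC043, CC042, CC041, CC040, CC032, CC019, CC013, CC011 and CC003). These are 59 of the 120 libraries of the series. An HF/HS library of a CC040 female held the same values as a control-diet library of a CC040 female, and both were left out. The HF/HS diet drew 42% of its calories from milkfat and contained 0.2% cholesterol and over 30% sucrose, and the control diet was its matched low-fat, low-sucrose counterpart. No transgene or knockout is named for any group, and the ages of the mice are not given in the sources used here. Whole livers were used, so a level is that of all cells of the organ together. Whether the replicates of a group are different mice is not stated in the labels. The p-values therefore measure the spread between these libraries, which may be technical.

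Many liver genes differ between male and female mice. Growth hormone reaches the male liver in separated pulses and the female liver more continuously, and its signal runs through the growth hormone receptor, JAK2 and the transcription factor STAT5B. Male pulses keep a male set of genes on, with the repressor BCL6 holding back female genes, while the female pattern switches on CUX2, a factor that represses male genes. The genes that differ most encode cytochrome P450 enzymes, sulfotransferases and transporters that act on steroids and foreign compounds, and the major urinary proteins, pheromone carriers that male livers secrete in bulk.

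Values are the authors' normalised FPKM (fragments scaled by transcript length and library size), and differences are male minus female on the log2(value + 1) scale with strain as a block, tested with limma. The labels matched the sex-linked genes: Xist, an X-inactivation transcript, had 0.0525 to 1.56 in male libraries and 28.5 to 122 in female libraries, and the Y-linked Uty, Kdm5d and Eif2s3y did not overlap between the sexes. A further Y-linked gene, Ddx3y, overlapped, with a lowest male value of 1.15 and a highest female value of 2.299. Hepatocyte markers summed to 45592 to 94828 in male libraries and 34102 to 99566 in female libraries. The 6 CC003 HF/HS libraries listed 42.0% to 45.1% of all table rows at 0, and the other HF/HS libraries 30.8% to 35.5%. A female CC011 library had 99007 of the acute-phase gene Saa1, 2 male CC032 libraries 22120 and 12575, and the medians were 393 in males and 203 in females. A female CC040 library had the highest level of the neutrophil gene S100a8, at 994. Counts of genes in a list are also given without these 4 libraries where that moved them by 1.5 times or more.

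Of 11611 autosomal rows with a mean of at least 1, 5451 (46.9%) passed an adjusted p of 0.05 in limma (Benjamini-Hochberg), with 3123 (26.9%) higher in males and 2328 (20%) lower in males. The median difference over all 11611 rows was 0.02. The shares of 26.9% and 20% are the background for each HF/HS count of called list members below. Most of the called differences were small: 95 of the rows that were higher and 98 of those that were lower passed 1 on the log2 scale. With the strain as the unit, where the male minus female difference of each strain is 1 replicate, the calls were 1900 higher and 1204 lower. Scaling by size factors, which centred the rows on 0, changed the split of calls, so that 50% of them were higher in males, against 57.3% with the authors' scaling and 62.6% after quantile normalization. All 30 male libraries lay above all 29 female libraries for 2 rows (0.0172%), and no row had all male libraries below all female libraries. Within each of the 10 strains the sexes were separated for 85 rows (0.732%), 52 with males above (0.448%) and 33 with males below (0.284%). The genes described first are the 15 largest differences per direction with a common sign in at least 9 strains, and these values chose them.

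The genes highest in males encoded cytochromes P450, major urinary proteins, steroid enzymes and a complement component. Cyp4a12a (chr4:115299046-115332815), which encodes a fatty acid omega-hydroxylase, had 357, 516 and 642 in male livers, against 0.4895, 2.35 and 172 in female livers, as the lowest, median and highest library. No male and female library overlapped, although the 2 CC040 females, at 172 and 171, stood far above the other females. The log2 difference was 6.45 ± 0.296 (SE, limma adjusted p = 8.53e-24), and it was 7.26 on the control diet. Its neighbour Cyp4a12b (chr4:115411624-115439034) had 90.6, 168 and 303 in male livers and 0.121, 0.849 and 46.7 in female livers, also without overlap (difference 5.85 ± 0.24, adjusted p = 1.98e-25). The pair is similar in sequence and may share reads, so their separate levels are uncertain.

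Cyp2d9 (chr15:82452377-82456827) encodes a steroid 16-alpha-hydroxylase that acts on testosterone. It had 561, 1779 and 2665 in male livers, against 11.5, 31.5 and 644 in female livers, a difference of 4.87 ± 0.20 (adjusted p = 6.03e-26) and of 4.97 on the control diet. The sexes overlapped over all libraries, because the highest female libraries reached the lowest male ones, but they were separated within 10 of 10 strains. Elovl3 (chr19:46131899-46135694), an elongase of very long chain fatty acids, had 39.1, 279.5 and 828 in male livers, against 1.29, 13.8 and 309.7 in female livers (difference 4.29 ± 0.29, adjusted p = 2.84e-17), and the sexes were separated in 10 strains. On the control diet the Elovl3 difference was 5.89, and the change between diets did not pass the interaction test (adjusted p = 0.14). Hsd3b5 (chr3:98618636-98645534), a steroid dehydrogenase family member that acts as a ketosteroid reductase, had 21.5, 244 and 437 in male livers, against 0.533, 24.9 and 194 in female livers, a difference of 3.26 ± 0.26 (adjusted p = 1.1e-14). Its sexes overlapped widely, with separation in 9 strains. C6 (chr15:4727210-4804045), a component of the terminal complement complex, had 99.1, 259 and 508 in male livers, against 11.8, 29.4 and 150.2 in female livers, a difference of 2.85 ± 0.15 (adjusted p = 3.12e-22), and was separated in 10 strains. The others among the 15 were Cyp2d12 at a difference of 3.56, Cml5 at 3.38, Selenbp2 at 2.97, the protease gene Capn8 at 2.93 and the fatty acid hydroxylase gene Cyp2u1 at 2.65. Capn8 was the exception among strains, with -0.396 in CC040.

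The major urinary protein genes were also higher in males where they could be counted. Mup20 (chr4:62050235-62054117), which encodes darcin, a pheromone of male urine, had 224, 4307 and 19957 in male livers, against 18.3, 68.8 and 1312 in female livers, a difference of 5.57 ± 0.20 (adjusted p = 7.46e-28). Mup3 had 249, 15282 and 24201 in male livers, against 55.98, 1583 and 9052 in female livers, a difference of 2.99 ± 0.21 (adjusted p = 7.2e-17). Neither gene was separated over all libraries, and within strains Mup20 was separated in 10 and Mup3 in 10 of 10. All 6 Mup genes that could be counted were higher in males (Mup20, Mup21, Mup5, Mup3, Mup6 and Mup4), with a median difference of 3.27. Without CC040 and CC019, 8 Mup rows met the same limit of 20 libraries at 0, because fewer libraries were left. Of these 6 were called higher and 2 lower, but no direction is read from rows that entered this way. The other Mup genes were among the 215 rows set apart for a 0 in over 20 libraries, of which 10 (4.65%) were called higher in males and 26 (12.1%) lower: Mup8, Mup9, Mup12 and Mup19 were listed at 0 in 27 of 30 male libraries and in 1 to 3 of 29 female libraries. In male libraries where Mup9 was not listed at 0 it reached 34081, and its median in females was 6407. Alb, the albumin gene that every hepatocyte uses, was likewise listed at 0 in 24 of 30 male and 25 of 29 female libraries, so a 0 in such rows can be a failed estimate and no direction is given for them. Mup genes are near-identical copies, and how reads were divided among them is uncertain.

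**Figure D1:**
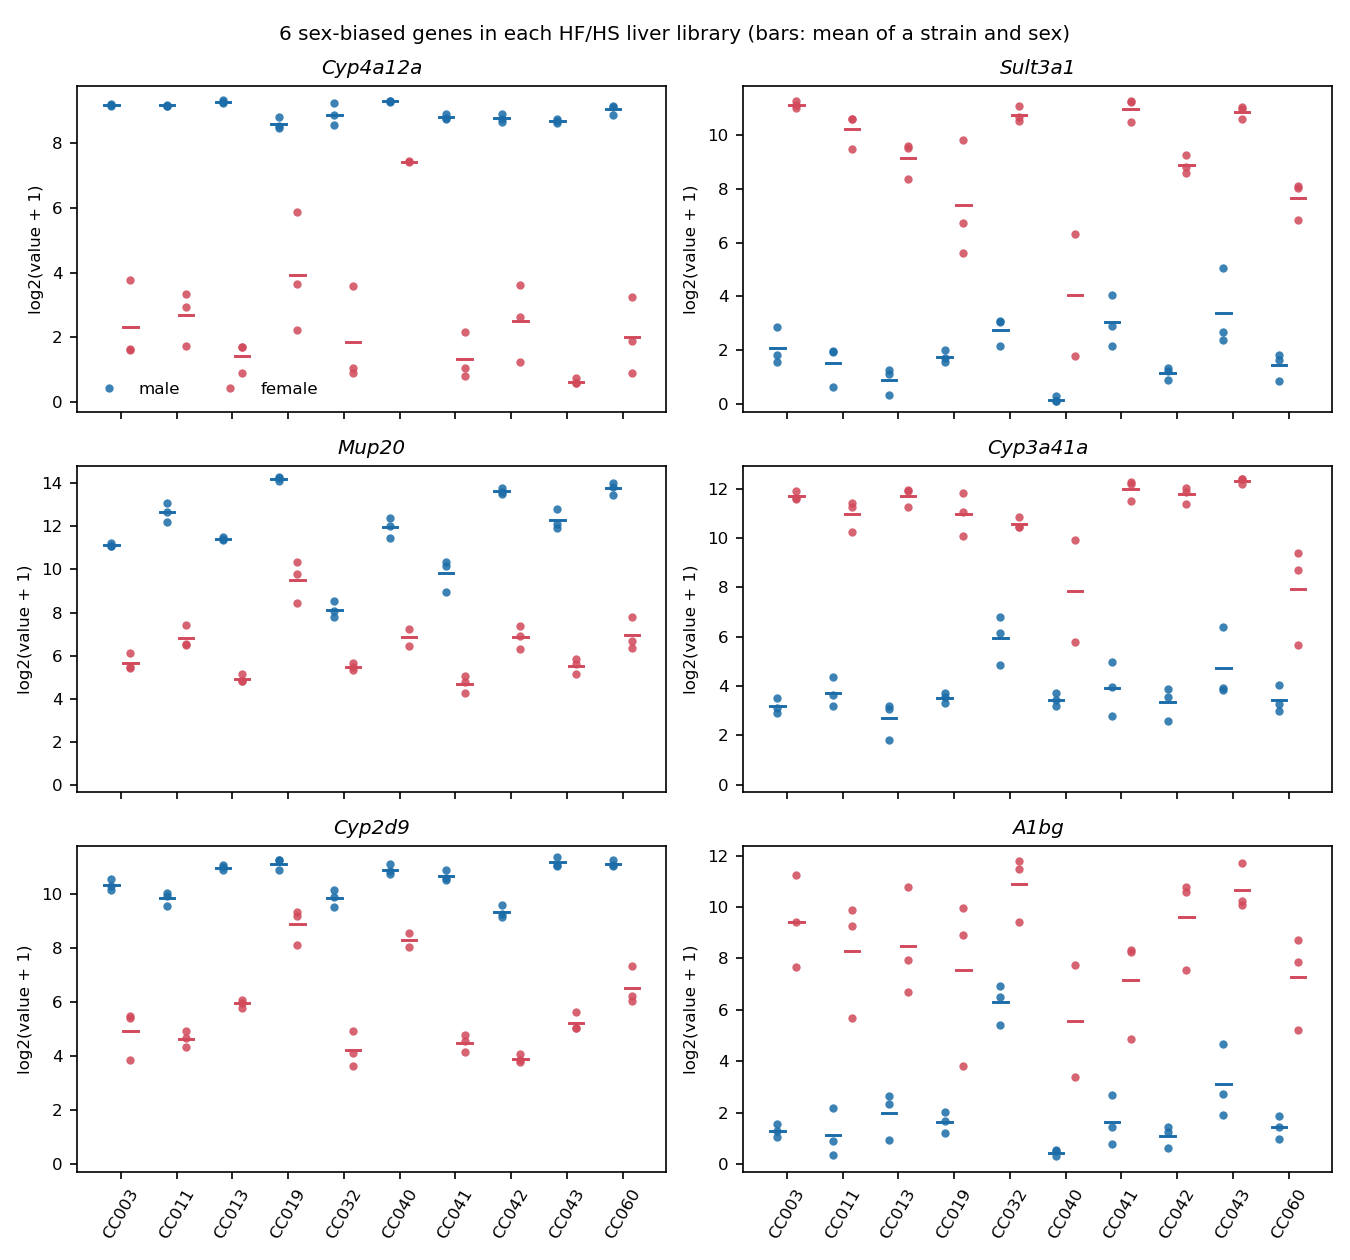
Level of 6 sex-biased genes (log2 of value + 1) by strain, each point 1 HF/HS library and each bar the mean of a strain and sex, with males in blue left of females in red. For Cyp4a12a the CC040 females, at 172 and 171 before the log, lie nearest to the males.

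The genes lowest in males, and so highest in females, included sulfotransferases, Cyp3a and Cyp2 genes and a plasma protein. Sult3a1 (chr10:33857722-33879475), an amine sulfotransferase, had 0.0632, 2.42 and 32.7 in male livers, against 2.43, 910.1 and 2477 in female livers, the largest difference of the named genes in this direction at -7.37 ± 0.299 (adjusted p = 7.27e-26) and at -8.21 on the control diet. The highest male library exceeded the lowest female one, and the sexes were separated within 10 of 10 strains. A1bg (chr15:60917589-60921270), a secreted plasma glycoprotein, had 0.24, 1.74 and 123 in male livers, against 9.49, 478 and 3541 in female livers, a difference of -6.51 ± 0.41 (adjusted p = 1.56e-18), with separation in 10 strains. Slc22a26, an organic anion transporter family gene, had 0, 0.527 and 58.6 in male livers, against 11.9, 79.9 and 246 in female livers, a difference of -5.07 ± 0.23 (adjusted p = 6.61e-24). Its sexes were separated in 10 strains. The promoters of these 3 genes are shown because, of the named genes with a RefSeq promoter entry, they held TTCNNNGAA, the letters that STAT5 is known to bind; Cyp2d9, higher in males, had none and is shown beside them. Each run is the 250 bases before the gene start on the coding strand, from RefSeq on GRCm38.p6, at chr10:33857472-33857721 (plus strand) for Sult3a1, chr15:60921271-60921520 (minus strand) for A1bg, chr19:7802668-7802917 (minus strand) for Slc22a26 and chr15:82452127-82452376 (plus strand) for Cyp2d9, with the motif in capitals.
Sult3a1: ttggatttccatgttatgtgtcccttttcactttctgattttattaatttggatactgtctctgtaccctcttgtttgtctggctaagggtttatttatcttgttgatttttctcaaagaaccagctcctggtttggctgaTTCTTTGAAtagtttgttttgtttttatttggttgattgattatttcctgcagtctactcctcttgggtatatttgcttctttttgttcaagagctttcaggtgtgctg
A1bg: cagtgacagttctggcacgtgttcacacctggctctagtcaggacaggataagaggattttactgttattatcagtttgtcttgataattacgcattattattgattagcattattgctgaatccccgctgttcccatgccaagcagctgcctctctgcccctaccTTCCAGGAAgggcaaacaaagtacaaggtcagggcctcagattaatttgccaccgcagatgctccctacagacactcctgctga
Slc22a26: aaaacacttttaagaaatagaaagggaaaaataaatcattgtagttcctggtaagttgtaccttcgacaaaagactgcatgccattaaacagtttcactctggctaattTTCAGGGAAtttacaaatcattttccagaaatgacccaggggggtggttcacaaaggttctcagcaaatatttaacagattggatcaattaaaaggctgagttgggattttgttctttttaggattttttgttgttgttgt
Cyp2d9: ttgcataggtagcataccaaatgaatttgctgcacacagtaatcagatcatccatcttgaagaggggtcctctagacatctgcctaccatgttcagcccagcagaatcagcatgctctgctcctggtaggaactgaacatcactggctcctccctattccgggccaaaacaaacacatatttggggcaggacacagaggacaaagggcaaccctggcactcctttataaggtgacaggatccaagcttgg
The motif starts 109, 84 and 141 bases before the gene start of Sult3a1, A1bg and Slc22a26. TTCNNNGAA reads the same on both strands, and it was present in 2306 of 32851 promoters of that length (7.02%) and in 648 of the 8688 that belonged to tested genes (7.46%). Of genes over 1 log2 unit lower in males it was present in 9 of 71 with an entry (12.7%), and of those over 1 higher in 4 of 64 (6.25%). Among the named genes it was present in 3 of 11 lower in males and 0 of 7 higher in males. A match describes these letters in this window and does not show that a factor binds there.

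Cyp3a41a (chr5:145694049-145720136), a steroid-hydroxylating P450 of female liver, had 2.51, 10.7 and 110.5 in male livers, against 49.8, 2747 and 5391 in female livers, a difference of -7.05 ± 0.32 (adjusted p = 6.61e-24) with separation in 10 strains. Cyp3a41b differed by -6.86 and Cyp3a44 by -4.46. The 250-base promoters of Cyp3a41a and Cyp3a41b matched at 249 bases (99.6%) and those of Cyp3a41a and Cyp3a44 at 236 (94.4%). Transcripts were not compared, but reads of such family members may be shared, so their separate levels are uncertain. Cyp2a4, a testosterone 15-alpha-hydroxylase, had 0.426, 22.5 and 149 in male livers, against 51.8, 645 and 1581 in female livers, a difference of -4.86 ± 0.27 (adjusted p = 1.85e-20). Its ranges overlapped too, with separation in 10 strains. Cyp17a1 (chr19:46667165-46673000), the 17-alpha-hydroxylase and lyase of steroid synthesis, had 0.253, 2.98 and 65.3 in male livers, against 2.23, 104 and 351 in female livers, a difference of -4.27 ± 0.24 (adjusted p = 1.67e-20), and its sexes overlapped widely with separation in 10 strains. The Sult2a genes, which sulfate hydroxysteroids and bile acids, differed together: the differences were -6.22 for Sult2a2, -5.87 for Sult2a1, -5.07 for Sult2a5, -4.82 for Sult2a6 and -4.49 for Sult2a4. These are neighbouring family members whose reads may be shared. Position by position, without alignment, 70 of 250 promoter bases matched between Sult2a4 and Sult2a5 (28%) and 66 between Sult2a5 and Sult2a6 (26.4%). A shift of the gene start alone could give so low a match, so these shares do not show how alike the promoters are. In CC019 the Sult2a differences were small, at -1.697 for Sult2a2 and -0.72 for Sult2a4, against -8.44 and -5.84 in CC042. The difference varied between strains for both in limma's F test (adjusted p = 0.000871 and 8.78e-07). Cyp2b9 differed by -4.301.

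Genes known to be sex-biased in mouse liver kept their known direction with few exceptions. The lists were chosen with earlier results of these data known, so the counts are a description and not an independent check. Of 36 tested genes known to be higher in males, 34 were higher and 1 lower, with a median difference of 2.27. Of 46 tested genes known to be higher in females, 44 were lower in males and 1 higher, with a median of -2.36. The background was 26.9% higher and 20% lower, with a median of 0.02. The member lower in males despite its listing was Socs2, a feedback inhibitor of growth hormone signalling, at -0.86 ± 0.21 (adjusted p = 0.00085). The member higher in males despite its listing was Cib3, a calcium-binding protein gene, at 1.68 ± 0.22 (adjusted p = 1.09e-08). Both had the same direction on the control diet, at -1.65 and 1.71. The 2 that did not pass were Bcl6 at 0.44 (adjusted p = 0.0964) and Ppargc1b at -0.203 (adjusted p = 0.0929).

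Receptors and secreted targets of the growth hormone pathway differed between the sexes. Prlr, the prolactin receptor, had 13.3, 36.4 and 97.5 in male livers, against 38.7, 174 and 348 in female livers, a difference of -2.24 ± 0.14 (adjusted p = 1.84e-18). Ghr, the growth hormone receptor, had 376, 497 and 623 in male livers, against 163, 399 and 496 in female livers, a difference of 0.396 ± 0.050 (adjusted p = 6.12e-09). Although small and overlapping over all libraries, the Ghr difference separated the sexes within each of the 10 strains. Of the targets that circulate, the growth factor gene Igf1 differed by -0.304 ± 0.057 (adjusted p = 2.01e-05) and its carrier Igfals by -0.46 ± 0.088 (adjusted p = 2.57e-05), both lower in males. Stat5b, at -0.08 (adjusted p = 0.179), and the feedback gene Cish, at -0.07 (adjusted p = 0.813), did not pass. Over the 20 tested members of the axis, 3 were higher and 8 lower (15% and 40%, against 26.9% and 20% of all rows), with a median of -0.17. With the strain as the unit 2 were higher and 6 lower.

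Among regulators of sex-biased genes, Cux2, the female repressor of male genes, had 0, 0.117 and 0.3001 in male livers, against 0.0957, 6.42 and 28.4 in female livers, a difference of -2.46 ± 0.19 (adjusted p = 2.68e-15). It was near 0 in the male libraries and above 1 in most female libraries, with separation in 9 strains. Bcl6, the male repressor of female genes, had 2.59, 8.82 and 46.3 in male livers, against 2.72, 4.603 and 29.4 in female livers. Its ranges overlapped widely on HF/HS, where the test was not passed, while on the control diet it was higher in males at 1.07 (adjusted p = 0.000111). That change between diets did not pass the interaction test (adjusted p = 0.544). Esr1, the estrogen receptor, differed by -1.36 ± 0.12 (adjusted p = 6.85e-14), the transcriptional regulators Tox by -1.09 ± 0.080 and Trim24 by -1.22 ± 0.093, all lower in males. Over the 21 tested regulators, 3 were higher and 6 lower (14.3% and 28.6%, against 26.9% and 20% of all rows). Hnf4a, at -0.005, did not pass (adjusted p = 0.941).

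Drug and steroid enzymes differed by subfamily, against a background of 26.9% of all rows higher in males and 20% lower. All 8 called Cyp2d genes of 10 tested were higher in males, with Cyp2d11 at 0.97 and Cyp2d34 at 0.85 after Cyp2d9 and Cyp2d12. All 6 called Cyp2a and Cyp2b genes of 7 were lower in males, with Cyp2b13 at -3.895 and Cyp2a22 at -1.84. The Cyp2c genes were divided, 5 higher and 6 lower of 13, from Cyp2c29 at 0.63 to Cyp2c69 at -4.01 and Cyp2c40 at -2.98. With the strain as the unit, 1 Cyp2c gene was higher and 5 were lower. The Cyp4 genes were divided as well, 6 higher and 5 lower of 13 (4 and 4 with the strain as the unit). The fatty acid hydroxylase gene Cyp4a31 differed by -1.46, in the opposite direction to Cyp4a12a. Conjugating enzymes differed likewise. Among sulfotransferases 10 of 16 were lower and 3 higher in males (1 with the strain as the unit), and among UDP-glucuronosyltransferases, which attach glucuronic acid, 10 of 20 were higher and 4 lower, with Ugt2b1 at 1.39 and Ugt2b35 at 0.91. Gstp1, a glutathione transferase of pi class, had 197, 1326 and 6016 in male livers, against 155, 232 and 619 in female livers, a difference of 2.47 ± 0.17 (adjusted p = 4.52e-17), and its copy Gstp2 differed by 2.39, with reads that may be shared. Of the 21 glutathione transferases 5 were higher and 7 lower (3 and 5 with the strain as the unit), with Gstt3 at -1.29. The flavin monooxygenase genes Fmo2, at -2.22, Fmo4, at -1.35, and Fmo1, at -0.85, were lower in males, and Fmo5 was higher at 0.68. Of 17 organic ion transporters, 7 were higher, with Slc22a7 at 1.41, and 7 lower, with Slc22a27 at -2.87 and Slco1a4 at -1.73.

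Steroid and bile acid enzymes included some of the widest differences. Cyp7b1, the oxysterol 7-alpha-hydroxylase of the acidic bile acid pathway, had 75.05, 283 and 1236 in male livers, against 15.3, 70.7 and 275 in female livers, a difference of 2.38 ± 0.13 (adjusted p = 3.08e-21). Cyp39a1, which hydroxylates 24-hydroxycholesterol, had 0.0995, 0.981 and 4.18 in male livers, against 0.0958, 7.26 and 32.99 in female livers, a difference of -1.65 ± 0.13 (adjusted p = 4.8e-15). The sexes overlapped for both genes and were separated in 10 strains for Cyp7b1 and 8 for Cyp39a1. Cyp7a1, the rate-limiting enzyme of bile acid synthesis, had 71.7 in male and 63.7 in female livers as medians and did not pass (difference 0.01 ± 0.29, adjusted p = 0.988). Of 27 steroid genes 14 were higher and 4 lower (51.9% and 14.8%), with a median of 0.21. Without the 4 libraries of highest Saa1 or S100a8, 14 were higher and 6 lower. Of 27 bile acid genes 10 were higher and 6 lower (37.0% and 22.2%), with a median of 0.13. The background was 26.9% higher and 20% lower, so the bile acid counts lie near it. The bile acid exporter gene Abcc4 was lower in males at -1.11.

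Most of the cholesterol synthesis and uptake genes tested were lower in males, in some strains more than in others. Sqle, the squalene epoxidase that catalyses a rate-limiting step, had 0.454, 3.097 and 31.8 in male livers, against 0.455, 14.3 and 111 in female livers, a difference of -1.396 ± 0.29 (adjusted p = 0.000107). The ranges overlapped almost fully at the low end, males were lower in 8 of 10 strains, and on the control diet the difference was -0.08 (adjusted p = 0.775). The Sqle difference no longer passed when strains were the replicates (adjusted p = 0.0582). Of 23 tested cholesterol genes 15 were lower (65.2%) and 0 higher in limma (17 lower and 0 higher at an unadjusted p under 0.05), with a median of -0.39. They included Fdft1, the squalene synthase, at -0.47, Tm7sf2 at -0.58 and Srebf2, the transcription factor of the pathway, at -0.39. On the control diet 2 were higher and 2 lower (background 21.8% and 16.8%), with a median of 0.03. None passed the interaction test between diets in limma (0 of 23, background 0.0603%). At an unadjusted p under 0.05, however, 11 were negative, against 540 of all 11611 rows. In a limma fit with a mean for each strain, sex and diet, where the libraries stayed the replicates, 4 were called negative (62 of all rows). The count rested on a part of the strains: the median over the 23 genes was -1.22 in CC003, -0.98 in CC032 and -0.60 in CC013, and it was 0.69 in CC042 and 0.000319 in CC011. With the strain as the unit 4 were lower, without CC003 and CC060 7, and without the 4 libraries of highest Saa1 or S100a8 11.

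Other lipid genes gave smaller or divided counts, against a background of 26.9% of all rows higher in males and 20% lower. Of 21 fatty acid synthesis genes 8 were lower in males and 2 higher. On the control diet 3 were lower and 7 higher (background 16.8% and 21.8%). The medians were -0.24 on HF/HS and 0.26 on control. By strain the HF/HS median was above 0 in CC042, at 0.96, and CC011, at 0.63. It was below 0 in the other strains, down to -1.18 in CC003. In CC042 the control median was -0.58, so the change with diet ran the other way there. In limma's interaction test 0 of 21 passed and 14 were negative at an unadjusted p under 0.05 (540 of all 11611 rows). The fit with a mean for each strain, sex and diet called 4 negative (62 of all rows). The lower count was 5 with the strain as the unit and 4 without CC003 and CC060. Without the 4 libraries of highest Saa1 or S100a8, 11 were lower and 3 higher. Pnpla3, a lipase family gene whose human form is linked to fatty liver, had 0.0909, 1.13 and 66.5 in male livers, against 0.314, 14.3 and 187 in female livers, a difference of -2.003 ± 0.37 (adjusted p = 1.45e-05) and of -0.96 on control. The desaturase gene Fads1 differed by -0.98, and Acacb, an acetyl-CoA carboxylase, by -0.92, both lower in males. Of 33 fatty acid oxidation genes 5 were higher and 11 lower (3 and 9 with the strain as the unit). On control 1 was higher and 19 lower (background 21.8% and 16.8%). Of the 33, 0 passed the interaction test in limma, and 12 were positive at an unadjusted p under 0.05 (524 of all 11611 rows). The fit with a mean for each strain, sex and diet called 1 positive (37 of all rows). The acyl-CoA thioesterase genes led: Acot3 had 0.1401, 2.66 and 43.9 in male livers, against 1.66, 66.7 and 195 in female livers (difference -3.46 ± 0.28, adjusted p = 7.81e-15), and Acot4 differed by -1.38. Vnn1, a pantetheinase and known PPAR-alpha target, differed by -1.34. Fabp5, a fatty acid binding protein, had 11.7, 42.97 and 157 in male livers, against 21.3, 151 and 507 in female livers, a difference of -1.58 ± 0.22 (adjusted p = 3.77e-08). Fitm1, a lipid droplet gene, was higher in males at 1.73 ± 0.20 (adjusted p = 6.09e-10). Over 31 lipid storage genes 8 were higher (4 with the strain as the unit) and 3 lower, with a median of 0.06. In glucose metabolism the glycogen synthase Gys2 was higher in males at 0.58 and Ppargc1a, a coactivator of fasting genes, lower at -0.32. Over 23 carbohydrate genes, 9 were higher and 5 lower (4 and 1 with the strain as the unit, 7 and 2 without CC003 and CC060).

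Most interferon-response genes were lower in males, at 80% of those tested against 20% of all rows. Gbp3, an interferon-induced GTPase, had 1.81, 5.22 and 10.4 in male livers, against 1.82, 9.91 and 37.96 in female livers, a difference of -0.94 ± 0.13 (adjusted p = 1.11e-07). Ifit3, an antiviral protein gene, had 2.42, 6.18 and 20.8 in male livers, against 4.76, 12.4 and 22.5 in female livers, a difference of -0.67 ± 0.11 (adjusted p = 8.32e-07). Both ranges overlapped, with separation in 7 strains for Gbp3 and 5 for Ifit3. Of 30 tested interferon genes 24 were lower and 0 higher in limma (25 lower and 0 higher at an unadjusted p under 0.05), with a median of -0.41. On the control diet 13 were lower (background 16.8%), with a median of -0.18. In limma's interaction test 0 passed, with 11 negative at an unadjusted p under 0.05 (540 of all 11611 rows). The fit with a mean for each strain, sex and diet called 3 negative (62 of all rows). With the strain as the unit 19 were lower on HF/HS. The median by strain ran from -0.96 in CC011 to 0.11 in CC041, and it was below 0 in 9 of 10 strains. Of these 9, CC042 lay near 0, at -0.007, with 14 genes higher and 16 lower in males.

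Most macrophage markers were also lower in males, against a background of 20% of all rows lower and 26.9% higher. In whole liver, fewer cells of a type and less RNA per cell cannot be told apart. Of 20 tested macrophage markers 13 were lower and 1 higher (6 and 0 with the strain as the unit), with a median of -0.496. Clec4f, which marks Kupffer cells, the resident macrophages, had 20.8, 68.2 and 134 in male livers, against 55.4, 97.5 and 267 in female livers, a difference of -0.69 ± 0.12 (adjusted p = 2.95e-06), and the complement gene C1qa, also of macrophages, differed by -0.65. The 22 macrophage rows summed to 144 to 1176 in male libraries and 443 to 2667 in female libraries, and no macrophage row was at 0 in all 59 libraries. The strains differed in direction, with a median over the 20 genes of -1.81 in CC011 and -1.03 in CC013, and of 0.50 in CC041 and 0.33 in CC042. For the antigen presentation genes of MHC class II, 6 of 8 were lower and H2-Ab1 differed by -0.66 ± 0.20 (adjusted p = 0.00578). Of the 8, 0 passed in limma when strains were the replicates (0 also at an unadjusted p under 0.05), and 2 passed without the 4 libraries of highest Saa1 or S100a8. The 12 rows of this list summed to 59.4 to 769 in male libraries and 172 to 1906 in female libraries, the highest being a CC013 female. The median sum was nevertheless higher in males than in females. The strains differed in direction here too. The median difference over the 8 genes was 0.98 in CC042, 0.51 in CC041 and 0.26 in CC060. It was below 0 in the other strains, down to -2.47 in CC011. Neutrophil genes summed to 4.97 to 88.5 in male libraries and 3.40 to 2338 in female libraries, the highest being the CC040 female named above. Of 7 tested neutrophil genes 3 were lower in males. With the strain as the unit limma called 0 (2 lower at an unadjusted p under 0.05). Without the 4 libraries 4 of them had a mean of at least 1, and limma called 0 of these (1 higher and 0 lower at an unadjusted p under 0.05). T and NK cell genes gave 3 lower and 1 higher of 4 (2 and 1 with the strain as the unit). Of 17 endothelial markers 9 were lower by small amounts (6 with the strain as the unit), with a median of -0.13. Among them Stab1 differed by -0.25 and Cdh5 by -0.19. The endothelial markers summed to 254 to 385 in male libraries and 311 to 467 in female libraries. Among 23 stellate cell and matrix genes 4 were higher and 5 lower (0 and 2 with the strain as the unit). Of 13 cholangiocyte genes 5 were tested, and 3 of these were higher (1 with the strain as the unit). Markers of red blood cells, fat, pancreas and kidney or adrenal summed to 497 to 3018, 5.02 to 477, 7.42 to 199.5 and 0.809 to 20.6 in male libraries, against 407 to 8206, 4.81 to 63.1, 5.39 to 46.9 and 0.286 to 6.91 in female libraries. What part these cells have in the interferon and immune differences was not tested.

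**Figure D2:**
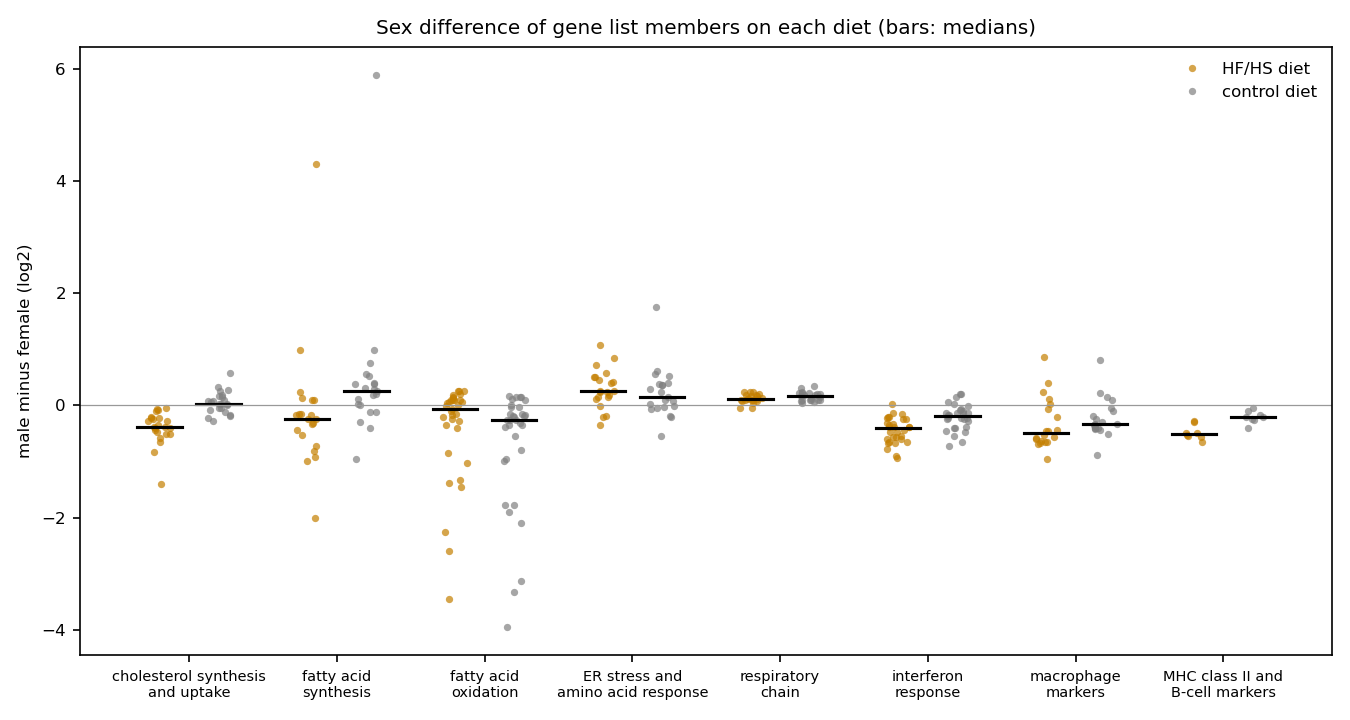
Male minus female difference (log2 of value + 1) of the tested members of 8 gene lists, 1 point a gene, with HF/HS in orange left of control in grey and bars at the medians. The cholesterol median lies at -0.39 on HF/HS and at 0.03 on control, and the interferon median at -0.41 and -0.18.

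Secreted proteins differed in both directions, against a background of 26.9% of all rows higher in males and 20% lower. The terminal complement genes were higher in males, with C8a at 1.93 ± 0.15 (adjusted p = 7.6e-16), C8b at 1.92 ± 0.15 (adjusted p = 4.54e-15) and C9 at 1.74 ± 0.11 (adjusted p = 5.45e-18), beside C6 above. Of 35 complement and coagulation genes 14 were higher and 12 lower (10 and 7 with the strain as the unit). Among 24 acute-phase genes 2 were higher, with Serpina3k at 0.996, and 6 lower, with Apcs, the serum amyloid P component, at -1.21. When strains were the replicates, 2 were higher and 3 lower, and without the 4 libraries of highest Saa1 or S100a8 3 were higher and 9 lower. Hamp2, a hepcidin-family gene, had 11.7, 96.1 and 4202 in male livers, against 33.04, 1958 and 14879.9 in female livers, a difference of -2.36 ± 0.28 (adjusted p = 1.22e-09). Lepr, the leptin receptor, had 0.849, 2.103 and 8.13 in male livers, against 1.71, 8.105 and 42.9 in female livers, a difference of -1.45 ± 0.17 (adjusted p = 1.67e-09). Both ranges overlapped, and the sexes were separated in 7 strains for Hamp2 and 9 for Lepr. Mt1, a metal-binding metallothionein, differed by -2.08 ± 0.41 (adjusted p = 4.24e-05), with its highest level, 7632, in the CC011 female of highest Saa1. Ccnd1, the cyclin D1 gene, was lower in males at -1.56 ± 0.13 (adjusted p = 2.39e-14).

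Many genes of protein folding and respiration were higher in males by small amounts, against a background of 26.9% of all rows higher and 20% lower. Of 21 tested endoplasmic reticulum stress genes 13 were higher and 1 lower (7 and 0 with the strain as the unit), with a median of 0.26. They included the chaperone gene Hspa5 at 0.496 ± 0.11 (adjusted p = 0.000374), Hyou1 at 0.58 ± 0.12 (adjusted p = 4.88e-05) and the disulfide isomerase gene Pdia6 at 0.45 ± 0.078 (adjusted p = 4.23e-06). Asns, the asparagine synthetase, differed by 1.08, and this call was lost when strains were the replicates (adjusted p = 0.057). The median over the 21 endoplasmic reticulum stress genes was -0.30 in CC011 and -0.01 in CC019, and it was above 0 in the other strains. Of 21 respiratory chain genes 15 were higher and 0 lower in limma (8 and 0 with the strain as the unit), with a median of 0.11 and with Ndufa4 at 0.24 and Ndufv1 at 0.200. Of 18 clock genes 1 was higher, Clock at 0.21, and 1 lower, Per3 at -0.38. Per3 lost its call under 11 of 32 alternatives (adjusted p 0.00191 to 0.179), the strain as the unit among them, and Clock under 0 of 32 (adjusted p 4.1e-05 to 0.0205).

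Of genes that mark hepatocytes near the central vein, 5 of 16 were higher and 0 lower in limma (at an unadjusted p under 0.05, 5 and 0; without the 4 libraries of highest Saa1 or S100a8, 5 were higher and 4 lower), with the xenobiotic-metabolising Cyp1a2 at 0.86 ± 0.14 (adjusted p = 1.77e-06). Of 16 that mark those near the portal vein, 4 were higher and 8 lower (2 and 2 with the strain as the unit, 3 and 5 without CC003 and CC060), with the lysosomal protease gene Ctsc at -1.303 ± 0.10 (adjusted p = 2.26e-15). Of 30 genes of one-carbon and amino acid metabolism, 4 were higher, with the betaine methyltransferase Bhmt at 0.86, and 8 lower, with Mat1a, which makes S-adenosylmethionine, at -0.47 (4 and 3 with the strain as the unit, 4 and 13 without the 4 libraries of highest Saa1 or S100a8). Of 23 lipoprotein genes, 4 were higher, with Apoc2 at 0.45, and 7 lower, with the receptor gene Vldlr at -0.74 and the cholesterol-esterifying Lcat at -0.32 (2 and 4 with the strain as the unit). Of 18 oxidative stress genes, 8 were higher, with the epoxide hydrolase Ephx1 at 0.69, and 5 lower (3 and 3 with the strain as the unit). These counts were divided or close to the background of all rows.

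**Figure D3:**
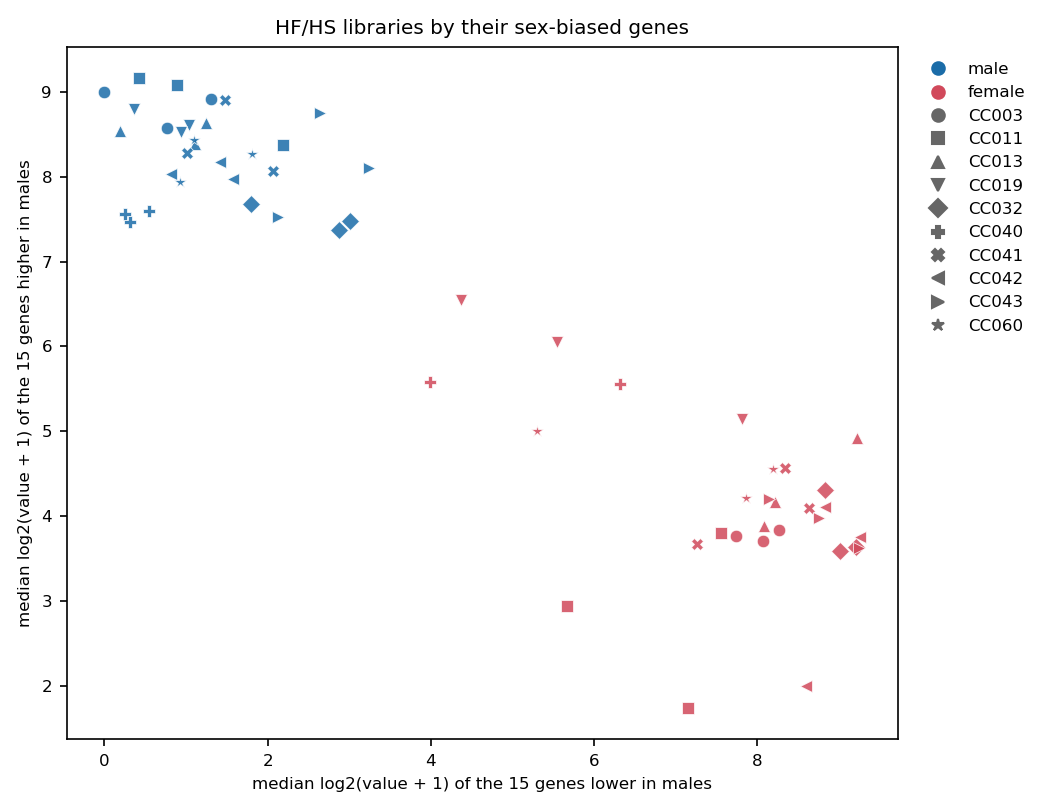
Each point is an HF/HS library, placed by the median level (log2 of value + 1) of the 15 genes lower in males (x axis) and of the 15 genes higher in males (y axis), with males in blue, females in red and a marker for each strain. Male libraries lie at 7.38 to 9.16 on the y axis and 0 to 3.25 on the x axis, and female libraries at 1.75 to 6.55 and 3.996 to 9.26.

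On the log2(value + 1) scale, female libraries covered a wider range than male libraries in the median levels of these leading genes. The ranges were not compared without the log. The median level of the 15 genes highest in males had a lowest, median and highest library of 7.38, 8.33 and 9.16 in males and of 1.75, 4.10 and 6.55 in females, on the log2 scale. For the 15 genes lowest in males these values were 0, 1.10 and 3.25 in males and 3.996, 8.15 and 9.26 in females. The separation is set by how the genes were chosen and is given as a description. The female libraries nearest to the males were of CC040, CC019 and CC060: replicate 3 of CC040 had 5.58 for the first set and 3.996 for the other, replicate 1 of CC019 had 6.55 and 4.37, and replicate 2 of CC060 had 5.003 and 5.30. By strain, the median difference over the first set was lowest in CC040 at 1.92 and CC019 at 2.86 and highest in CC013 at 5.03. Over the other set it was smallest in CC011 at -3.79, CC040 at -3.89 and CC019 at -4.23, and widest in CC013 at -7.30. CC040 was low on the control diet too, at 1.87 and -3.20, whereas CC019 had 4.22 and -6.43 and CC011 had 3.33 and -6.11 there. Cyp4a12a shows the pattern at 1 gene. Its mean was 626 in CC040 males and 172 in CC040 females, 389 in CC019 males and 24.3 in CC019 females, and 411 in CC043 males and 0.553 in CC043 females. The sex difference of Cyp4a12a varied between strains in limma's F test (F = 7.57, adjusted p = 9.96e-05).

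**Figure D4:**
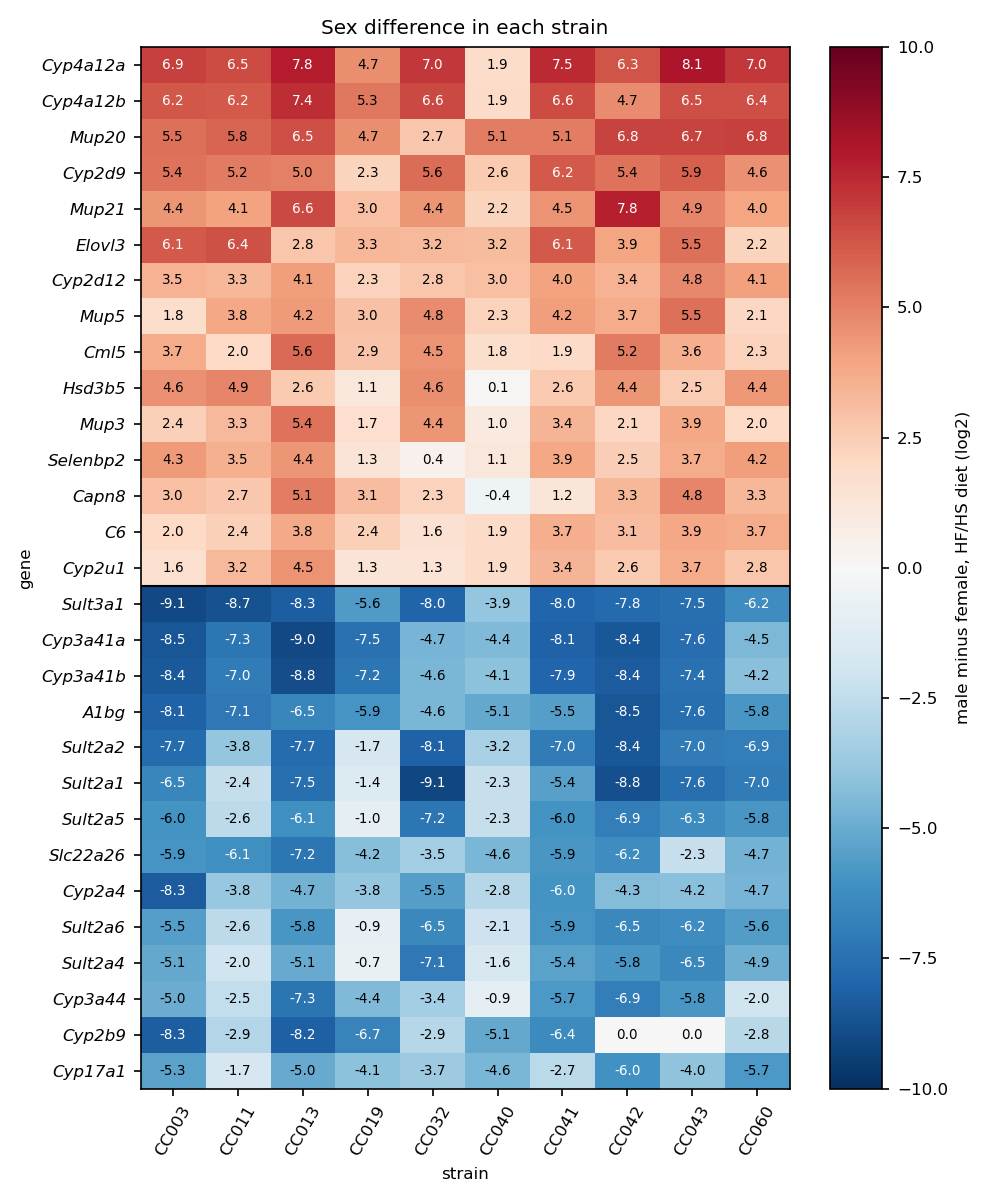
Male minus female difference on HF/HS (log2 of value + 1) of the 15 genes higher (red) and 14 of the 15 genes lower (blue) in males, down the page, in each of the 10 strains. CC040 is pale for Cyp4a12a, at 1.86, and CC019 is pale for the Sult2a genes, at -1.697 for Sult2a2.

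The sex difference varied between strains in 2739 of 11611 rows (23.6%; F test of limma, adjusted p under 0.05), including all 15 of the genes highest in males and 13 of the 15 lowest. The count was 1763 without CC042 and 948 to 1421 when the male libraries of a replicate number were left out. The rows with the lowest p were separated by sex in some strains and overlapped in others. Ugt3a2, a glycosyltransferase, had 34.1, 34.0 and 30.2 in CC003 males, against 2.64, 1.67 and 1.99 in CC003 females, while CC041, the other strain with low levels, had 35.9 to 45.1 in males and 33.5 to 36.6 in females. Its F was 92.9 (adjusted p = 3.92e-21) and fell to 3.05 (adjusted p = 0.045) without CC003. Cyp2c39, a P450 that hydroxylates retinoic acid, had 3.02 to 8.08 in CC019 males, against 748 to 1010 in CC019 females, and 207 to 216 in CC032 males, against 193 to 257 in CC032 females (F = 55.5, adjusted p = 9.57e-17). Its neighbour Cyp2c38 followed, with 0.257 to 0.814 in CC019 males, against 146 to 226 in CC019 females, and 11.9 to 17.4 in CC032 males, against 11.8 to 15.3 in CC032 females. So both genes were lower in males of CC019 and overlapped between the sexes of CC032. Iqcg, a gene of cilia and flagella, had 15.8 to 17.3 in CC042 males, against 1.58 to 3.07 in CC042 females, and was similar in CC043, at 14.95 to 19.4 in males and 3.096 to 6.24 in females (F = 43.4, adjusted p = 4.04e-15). Cmah, which makes the sialic acid Neu5Gc, had 46.5 to 53.4 in CC032 males, against 8.33 to 10.8 in CC032 females, and its sexes overlapped in CC019 (F = 34.8, adjusted p = 1.33e-13). Gnai1, a G protein subunit gene, had 20.4 to 23.0 in CC032 males, against 0.973 to 1.87 in CC032 females (F = 27.9, adjusted p = 4.2e-12).

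Pltp, the phospholipid transfer protein of plasma, was sex-biased in opposite directions. It had 34.2 to 51.6 in CC032 males, against 202 to 321 in CC032 females, and 47.9 to 56.3 in CC042 males, against 16.4 to 26.8 in CC042 females (F = 26.9, adjusted p = 7.31e-12). The sexes were separated in both strains. Rpp40, a subunit of RNase P, had 18.7 to 21.0 in CC013 males, against 2.83 to 3.89 in CC013 females (F = 28.5, adjusted p = 3.3e-12). Adgrv1, an adhesion receptor gene, had 19.8 to 23.2 in CC060 males, against 1.28 to 3.20 in CC060 females (F = 26.3, adjusted p = 1.01e-11). Cyp2b9 was near 0 in both sexes of CC042 and CC043, in contrast to its wide difference elsewhere (F = 29.6, adjusted p = 4.2e-12).

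**Figure D5:**
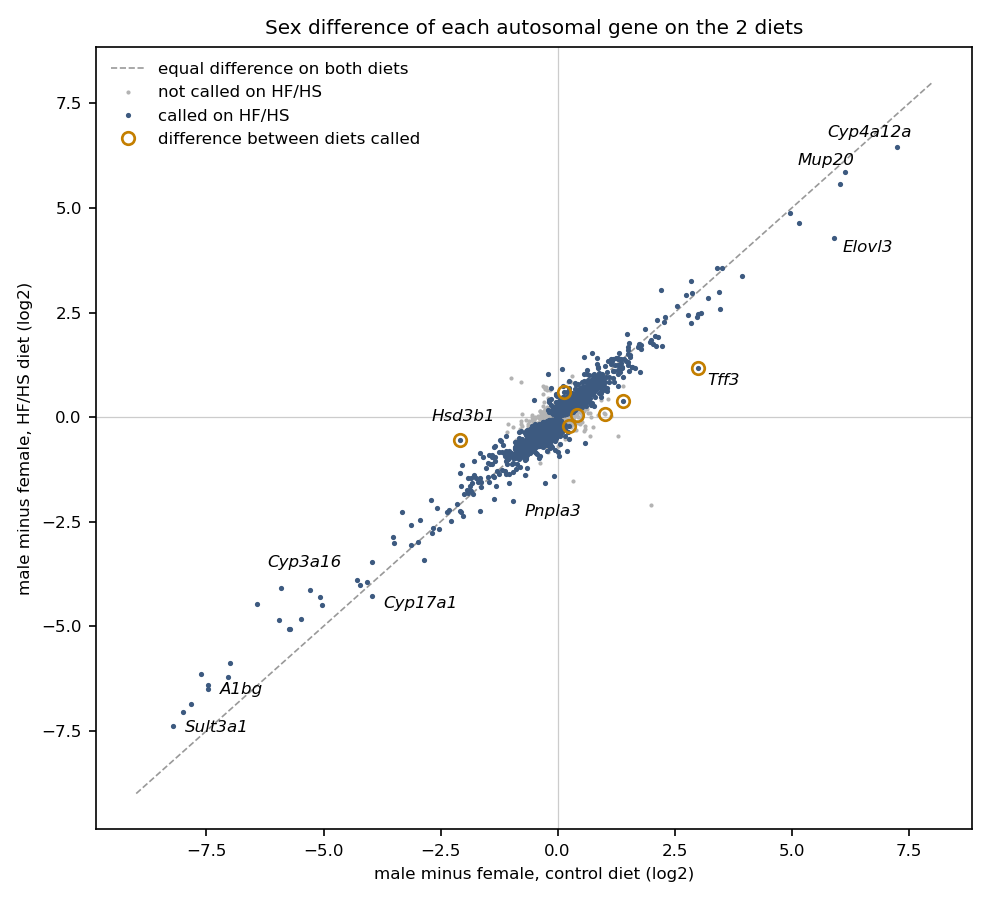
Male minus female difference (log2 of value + 1) on the HF/HS diet (y axis) against that on the control diet (x axis), 1 point for each tested row, with the dashed line at equal differences. The points follow the line, those of the genes lowest in males lie nearer to 0 on HF/HS, and the 7 rows called in the interaction test are circled.

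The sex differences were broadly shared with the control diet. On control 4482 rows (38.6%) were called, 2529 higher in males and 1953 lower, and no library was shared between the comparisons. Both diets called 1971 rows higher and 1502 lower, and 3 in opposite directions: 63.7% of the rows called on HF/HS were called the same way on control, and 77.5% of those called on control were called the same way on HF/HS. Across rows, which are not independent replicates, the differences on the diets had a Pearson r of 0.934. Of the 15 genes lowest in males on HF/HS, 14 had a smaller difference on HF/HS than on control, with medians of -5.07 and -6.42. Of the 15 highest, 9 had a smaller one, with medians of 3.55 and 3.51. None of these 30 passed the interaction test in limma, and 7 passed an unadjusted p under 0.05, among them Cyp3a44 at 1.96 ± 0.46 (adjusted p = 0.0594).

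The sex difference itself changed with diet in 7 of 11611 rows (0.0603%), at an adjusted p under 0.05 in limma's interaction test, 2 of them positive (0.0172%) and 5 negative (0.0431%), with 524 positive and 540 negative at an unadjusted p under 0.05. The count depended on the libraries and the model used: negative rows numbered 19 without CC042 and 13 without CC032, against 5 with all strains. With the strain as the unit 0 rows passed (220 positive and 232 negative at an unadjusted p under 0.05). The fit with a mean for each strain, sex and diet called 37 positive and 62 negative. There the libraries are the replicates, and differences between strains in the sex difference are left out of the spread. Hsd3b1, a steroid dehydrogenase, had medians of 0.0335 in males and 0.506 in females on HF/HS, and of 0.0677 in males and 3.71 in females on control. Its difference was -0.55 on HF/HS and -2.09 on control (change 1.54 ± 0.28, adjusted p = 0.00119). The female median was thus the lower one on HF/HS, while the male medians were near 0 on both diets. Tff3, a secreted trefoil peptide, had medians of 1.51 in males and 0.216 in females on HF/HS, and of 5.33 in males and 0.167 in females on control (change -1.82 ± 0.39, adjusted p = 0.0331). Atg16l2, an autophagy gene, had medians of 5.36 in males and 4.06 in females on HF/HS, and of 12.6 in males and 3.79 in females on control (change -1.01 ± 0.17, adjusted p = 0.000288). For both genes the male median was lower on HF/HS, and the female medians were close on the diets. Slc10a2, a bile acid importer, had medians of 21.7 in males and 20.1 in females on HF/HS, and of 28.04 in males and 15.8 in females on control (change -0.92 ± 0.20, adjusted p = 0.0331). The other 3 were Fam124a with a change of 0.47 (adjusted p = 0.0121), the RNA sensor family gene Dhx58 with -0.44 (adjusted p = 0.0351) and the ATP-gated channel gene P2rx4 with -0.36 (adjusted p = 0.0451). Of the 7, Fam124a had a wider difference on HF/HS, Dhx58 differed in sign, and the others had a smaller difference on HF/HS.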

How the data were processed

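Liver RNA was sequenced from Collaborative Cross mice; the labels name an mRNA kit and a kit that depletes ribosomal RNA, without saying which library used which. Per the submitters' processing notes, Cufflinks 2.2.1, TopHat2 2.1.1 and Bowtie2 2.2.5.0 were run on mm10. The deposited table holds FPKM that the authors rescaled between libraries, by a formula not given in the sources used here; it holds no read counts, so depth is unknown in reads. The steps between low values put the HF/HS libraries of CC003 at 0.0764 to 0.117 of the depth of a CC041 male library. The other HF/HS libraries lay at 0.822 to 1.69. On the control diet CC003 ranged from 0.108 to 0.360 and the other strains from 0.816 to 1.48. Low genes are therefore least precise in CC003. Its RNA make-up differed too. A list of 13 genes whose transcripts lack a poly(A) tail summed to 937820 in a CC003 male library and 695486 in a CC003 female library, the highest of each sex on HF/HS. The medians were 85865 in males and 87791 in females. What this does to the CC003 differences was not tested.

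Values were taken as log2(value + 1), which understates the change of low genes. Autosomal rows that averaged at least 1 in the 59 HF/HS libraries were fitted (11826 rows), and 215 with 0 in over 20 libraries were set apart, of which 36 (16.7%) were called. limma 3.58.1 in R 4.3.3 fitted strain and sex, with a trended, robust prior and Benjamini-Hochberg adjustment over all fitted rows, two-sided at 0.05. The same rows were fitted on the control diet, in a sex by diet interaction with strain within diet (118 libraries), and in an F test of the sex difference between strains. The fits were tested on simulated data. Named were the 15 largest called differences per direction with that sign in at least 9 strains, up to 5 interaction rows per direction, the 10 lowest p of the F test and up to 4 called members per gene list with the lowest p, without rows of unnamed or repeated symbols; Bcl6, Cib3, Cish, Cyp7a1, Fmo5, Hnf4a, Ppargc1b, Socs2 and Stat5b were chosen after their values were seen. Among the 15 lowest, 1 gene is not reported here by itself. The comparison and the gene lists were chosen with earlier results of these data known. Alternatives covered the pseudocount, the filter, the scaling, the blocks, the unit of replication and each strain and replicate left out. Leaving out 4 libraries of highest Saa1 or S100a8 was chosen after seeing the data. Table coordinates were written from 1, on mm10.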

Additional observations from a re-analysis of the deposited data

Results flagged for a closer look

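The following sex differences themselves differed between groups, by a test of that difference in limma. Between diets, the male minus female difference on HF/HS minus that on control was 1.54 for Hsd3b1, 0.47 for Fam124a, -1.82 for Tff3, -1.01 for Atg16l2, -0.92 for Slc10a2, -0.44 for Dhx58 and -0.36 for P2rx4, on the log2 scale. Between strains, the F statistic of the sex difference on HF/HS was 92.9 for Ugt3a2, 55.5 for Cyp2c39, 43.4 for Iqcg, 38.5 for Cyp2c38, 34.8 for Cmah, 29.6 for Cyp2b9, 28.5 for Rpp40, 27.9 for Gnai1, 26.9 for Pltp and 26.3 for Adgrv1. Of the diet results, Hsd3b1 lost its call under 2 of 36 alternatives and Atg16l2 under 1 of 38. Under 38 alternatives each, Fam124a lost it under 12, Dhx58 under 19, Slc10a2 under 20, Tff3 under 21 and P2rx4 under 26. None of the 10 strain results lost its call under the 29 or 30 alternatives that gave an F test.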

How the results depend on the processing

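No named result reversed. For the named genes' sex difference on HF/HS, 5509 values under alternatives kept their call and 92 lost it, and for the interaction 163 kept it and 101 lost it. With the strain as the unit, 1900 rows were higher and 1204 lower in males on HF/HS, 1264 were lower on control, and the interaction called 0 positive and 0 negative rows (220 and 232 at an unadjusted p under 0.05 in limma). A fit with a mean for each strain, sex and diet, with the libraries as replicates, called 37 positive and 62 negative interaction rows. These last settings give no F test. With a mean of at least 5, 1449 rows were lower on HF/HS and 1222 on control. Negative interaction rows numbered 3 with a pseudocount of 5 and 1 with no filter. Without a strain, positive and negative interaction rows changed beyond 1.5 times from 2 and 5 as follows: negative rows were 2 without CC003, 3 without CC011, 2 without CC043, 2 without CC060 and 2 without CC003 and CC060; positive rows were 4 without CC019 and 1 without CC041; without CC013 they were 0 and 1, and without CC032 5 and 13. Without CC042, 19 were negative and the F test called 1763. Without the 4 libraries of highest Saa1 or S100a8, 1 was positive and 1 negative. Leaving out the libraries of a sex, diet and replicate number in turn gave 2477 to 2992 rows higher and 1902 to 2319 lower on HF/HS, 1880 to 2440 higher and 1512 to 1962 lower on control, 1 to 5 positive and 1 to 10 negative interaction rows, and 948 to 2770 rows in the F test. Whether library numbers pair the samples is not known. Of 29 male and female pairs with the same number, 9 deviated together with a correlation over 0.1 (range -0.14 to 0.238). Pairs with different numbers were not compared, so these values cannot decide it. With a replicate block by number, 3116 rows were higher and 2319 lower on HF/HS and the F test called 2752. With a replicate block by strain and number, 2920 were higher and 2151 lower, the F test called 2153, and the interaction called 0 positive rows (466 at an unadjusted p under 0.05) and 1 negative. The cause of these changes was not tested. The low depth of CC003 limits low genes there.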
